A study of Mus musculus with 30 samples.

Results

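The genes described here write and maintain DNA methylation: Dnmt1, Dnmt3a, Dnmt3b, Dnmt3l, Uhrf1 and Uhrf2. They were chosen by name, and 5 of the 6 were among the 20286 gene symbols of the expression tables. Uhrf1 had no row under its symbol or its RefSeq synonyms and was not analysed here. The series holds 30 libraries, of which the 4 of polyA RNA were used, 2 of Tdg fl/fl and 2 of Tdg -/- mouse embryonic stem (ES) cells. Both genotypes share the strain label C57BL/6-ICR and carry either floxed alleles of Tdg, the gene of thymine DNA glycosylase, or its deletion. The sources used here do not give the number of clones behind each genotype, nor the medium of the RNA cultures. Labels of other libraries of the series name a feeder-free culture with LIF and the inhibitors CHIR99021 and PD0325901.

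DNA methylation in mammals is placed on cytosines of CpG dinucleotides. DNMT3A and DNMT3B methylate unmodified DNA, and DNMT3L, which has no catalytic activity of its own, binds and stimulates them. After replication, UHRF1 binds hemimethylated CpG and recruits DNMT1, which copies the methylation to the new strand. UHRF2 is a relative of UHRF1 that does not replace it in maintenance. Thymine DNA glycosylase acts on the opposite route: it excises the formyl and carboxyl forms into which TET enzymes oxidise 5-methylcytosine. The comparison thus asked whether the transcripts of the writing machinery differed when this removal step was deleted.

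All 5 genes were expressed in both genotypes, and their Tdg -/- values differed from fl/fl by between -12.2% and 1.55%. The authors deposited 1 value for each gene and genotype, as FPKM, a fragment count scaled to transcript length and library size, with both libraries behind it. No spread between replicates can be had from such values, so no difference here has a replicate check and no p-value is given. Changes are log2((Tdg -/- FPKM + 1)/(fl/fl FPKM + 1)), and the 12053 genes with at least 1 FPKM in either genotype are called measured. In bulk RNA, fewer cells that express a gene and less RNA per cell cannot be told apart.

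The deleted gene itself went from 22.1 FPKM in fl/fl cells to 9.48 FPKM in Tdg -/- cells, a log2 change of -1.14. Thus 42.9% of its value remained, and a value per gene cannot show which part of the transcript was deleted. ES cell markers were high in both genotypes: the 7 in the tables lay between 70.0 and 4571 FPKM in fl/fl and between 67.4 and 4691 FPKM in Tdg -/- cells. Pou5f1, the core pluripotency factor, was at 630.5 and 612.1 FPKM. The 8 fibroblast markers summed to 6.79 and 5.03 FPKM, with Lum listed at 0 in both. Markers of endoderm summed to 1.54 and 1.47 FPKM, of mesoderm to 3.81 and 3.57, of neuroectoderm to 9.86 and 9.06, of trophectoderm to 29.0 and 25.4 and of primed epiblast to 5.35 and 3.35. Of the 4 primed epiblast markers, 2 were measured, and both were lower in Tdg -/- cells. Otx2 was at 2.55 and 1.51 FPKM (log2 change -0.498) and Lef1 at 1.92 and 0.82 FPKM (-0.68). Pou3f1 and Fgf5 did not reach 1 FPKM. Pou3f1 was slightly higher in Tdg -/- cells, at 0.83 and 0.96 FPKM, and Fgf5 was at 0.06 and 0.05 FPKM. All 4 levels are low, and a loss of primed markers was not tested. The read numbers behind the tables are unknown. Among 1223 rows below 0.05 FPKM in both tables, 31 shared a Tdg -/- to fl/fl ratio of 0.661 to 3 decimals, and the next most common ratio occurred in 7. If those rows held 1 read in each table, the Tdg -/- table was made from 1.51 times as many reads.

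The de novo group had both the highest and the lowest level. Dnmt3l had 99.1 FPKM in fl/fl cells and 93.8 FPKM in Tdg -/- cells, above 94.4% and 94.3% of measured genes. The 2 values differed by -5.34%, a log2 change of -0.08, and 65.5% of measured genes had a larger change in either direction. Dnmt3b, the de novo enzyme that prevails in the early embryo, had 19.0 FPKM in fl/fl cells and 17.2 FPKM in Tdg -/- cells. The difference was -9.33%, or -0.13 on the log2 scale, and 44.5% of measured genes differed more.

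Dnmt3a was the lowest of the 5, with 7.32 FPKM in fl/fl cells and 6.72 FPKM without Tdg. It differed by -8.25% (log2 change -0.11), less than 53.6% of measured genes did. All 3 de novo genes were thus slightly lower in Tdg -/- cells. After quantile normalization Dnmt3b and Dnmt3a were at -0.10 and -0.11, while Dnmt3l was nearly level at -0.02. The stimulating partner exceeded the enzymes in both genotypes. Dnmt3l was 5.22 times the level of Dnmt3b in fl/fl and 5.44 times in Tdg -/- cells, and 13.5 and 14.0 times the level of Dnmt3a. The values are per gene symbol, so the long and short forms of Dnmt3a, or the catalytically active and inactive splice forms of Dnmt3b, cannot be separated.

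**Figure D1:**
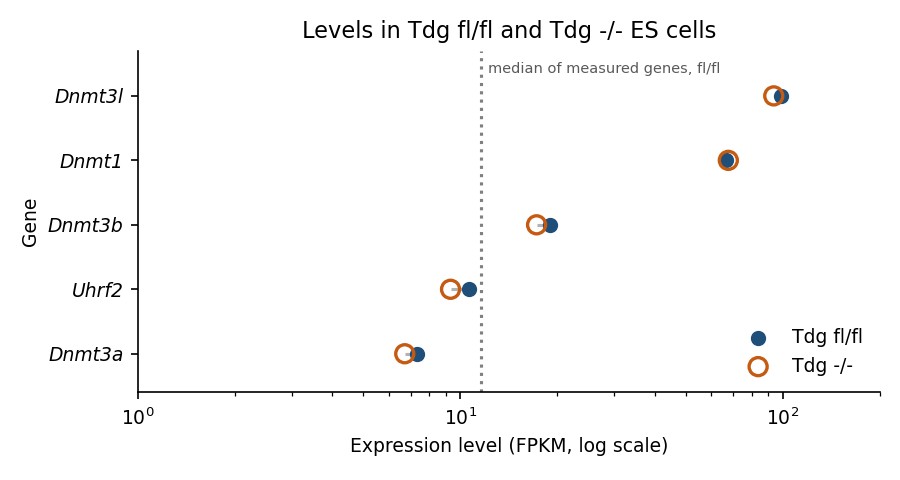
Expression of the 5 genes in FPKM (log axis), filled points for Tdg fl/fl and open circles for Tdg -/- ES cells, each 1 deposited value from 2 libraries; the dotted line is the median of measured genes in fl/fl cells, 11.6 FPKM. The order of the genes is the same in both genotypes, and the pair of points of each gene lies close together from Dnmt3a at 7.32 and 6.72 FPKM to Dnmt3l at 99.1 and 93.8 FPKM.

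The promoters of the de novo genes differ in their number of CpG, the substrate of their own products. They are shown because the most abundant of the 3 has the fewest, a choice made with the levels known. A link between CpG number and level was not tested. The sequences are from RefSeq (GRCm38.p6), hold the 250 bases before an annotated start in the 5′ to 3′ direction of the gene, and have each CpG in capitals. The first start of Dnmt3a (chr12:3806730-3806979, plus strand), the start of Dnmt3b (chr2:153649199-153649448, plus strand) and the first start of Dnmt3l (chr10:78042037-78042286, plus strand) have 38, 21 and 5 CpG.
Dnmt3a: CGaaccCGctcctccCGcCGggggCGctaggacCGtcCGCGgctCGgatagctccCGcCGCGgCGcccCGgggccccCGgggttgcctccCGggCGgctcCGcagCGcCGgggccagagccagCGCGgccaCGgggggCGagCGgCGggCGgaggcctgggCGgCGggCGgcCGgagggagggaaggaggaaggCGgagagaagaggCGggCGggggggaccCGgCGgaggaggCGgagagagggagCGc
Dnmt3b: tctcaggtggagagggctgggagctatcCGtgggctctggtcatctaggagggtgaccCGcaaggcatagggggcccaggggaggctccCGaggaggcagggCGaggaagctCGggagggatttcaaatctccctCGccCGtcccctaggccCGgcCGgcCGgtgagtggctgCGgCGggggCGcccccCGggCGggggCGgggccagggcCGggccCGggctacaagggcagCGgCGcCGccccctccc
Dnmt3l: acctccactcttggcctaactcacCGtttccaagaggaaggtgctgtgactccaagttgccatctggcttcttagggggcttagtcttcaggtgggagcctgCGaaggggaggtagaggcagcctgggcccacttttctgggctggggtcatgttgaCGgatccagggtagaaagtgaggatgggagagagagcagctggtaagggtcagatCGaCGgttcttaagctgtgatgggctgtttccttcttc

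Over 32851 promoter windows of this length, the median was 6 CpG, so that the Dnmt3a window held more than 98.1% of them, the Dnmt3b window more than 83.7% and the Dnmt3l window more than 44.4%. The other starts of Dnmt3l had 4 and 3 CpG. The other starts of Dnmt3a had 40, in a window that overlaps the first, and 15. Dnmt1 had 2, 7 and 26 CpG at its 3 starts, and Uhrf2 had 23 at its single one. The GC box GGGCGG, searched on both strands, was in 32.7% of all windows and occurred 5, 4 and 1 times at the starts of Dnmt3a and 3 times each at Dnmt3b and Uhrf2. It occurred 2 times at the second start of Dnmt3l and 2 times at the third start of Dnmt1, and was not found at their other starts. The E2F-type sequences TTTGGCGC (0.417% of windows) and TTCCCGCC (1.86%) were in none of the windows of the 5 genes, and TTCCCGCC occurred once at the first of the 2 starts of Uhrf1. The E-box CACGTG (6.02%) was at the third start of Dnmt3a and the second of Dnmt3l. Which start these cells use was not measured, and a match is a description of the letters only.

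Of the maintenance genes, Dnmt1 was abundant, with 66.8 FPKM in fl/fl cells and 67.8 FPKM in Tdg -/- cells. It was the single gene of the 5 with a higher value in Tdg -/- cells, by 1.55%, a log2 change of 0.02 that 90.0% of measured genes exceeded in size. Uhrf2 had 10.6 FPKM in fl/fl cells and 9.31 FPKM in Tdg -/- cells. Its difference of -12.2% (log2 change -0.17) was the largest of the 5, and 34.4% of measured genes still differed more. With Dnmt1 nearly level and Uhrf2 slightly lower, the ratio of Dnmt1 to Uhrf2 was 6.29 in fl/fl and 7.28 in Tdg -/- cells.

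The order of the 5 levels was Dnmt3l, Dnmt1, Dnmt3b, Uhrf2 and Dnmt3a in both genotypes. The closest neighbours in this order were Uhrf2 and Dnmt3a, 1.45 times apart in fl/fl and 1.39 times in Tdg -/- cells, and Dnmt3l and Dnmt1, 1.48 and 1.38 times apart. These gaps were wider than the difference of any of the 5 genes between the genotypes. Whether they exceed the spread between libraries was not tested. Together the 5 genes summed to 202.8 FPKM in fl/fl cells and 194.8 FPKM in Tdg -/- cells. All symbols of the expression tables summed to 446397 FPKM in fl/fl and to a lower 425972 FPKM in Tdg -/- cells. The shares of the 5 genes in their own sum hardly moved: Dnmt3l made up 48.9% and 48.1%, and Dnmt1 32.9% and 34.8%.

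None of the 5 genes reached a log2 change of 1 in either direction, against 0.357% of measured genes (0.183% higher and 0.174% lower). None reached 0.5, against 3.45% (1.82% higher and 1.63% lower). With 5 genes and such small background shares, a count of 0 does not set them apart from other genes. Their median change was -0.11, with 4 of 5 below 0. Over all measured genes the median was -0.02, with 54.9% below 0 and the 5th and 95th percentiles at -0.34 and 0.33. All 5 genes lay within that range.

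**Figure D2:**
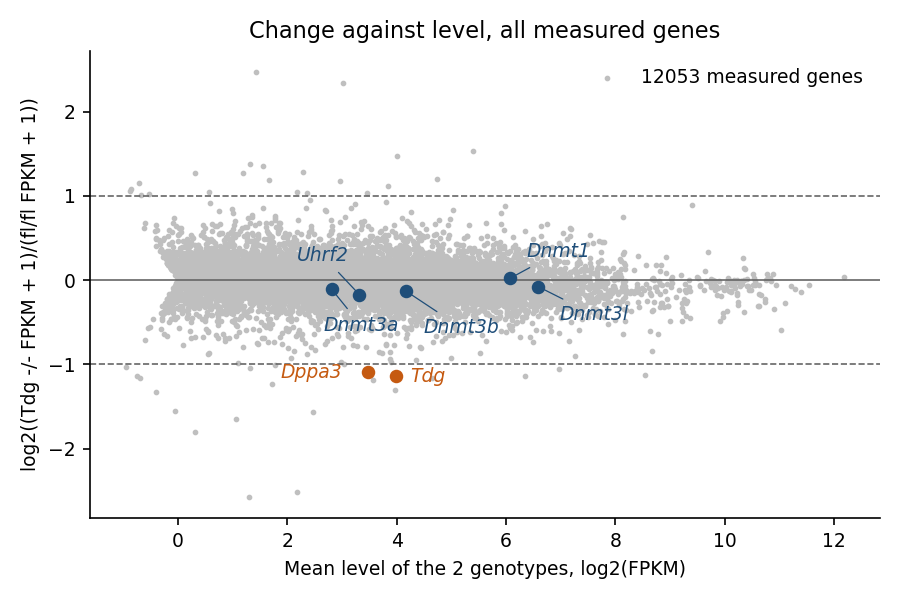
Change between genotypes (log2 of Tdg -/- over fl/fl, each FPKM + 1) against the mean level for 12053 measured genes (grey), with the 5 methylation genes in blue, Tdg and Dppa3 in orange, and dashed lines at a log2 change of 1 in each direction. The blue points lie between -0.17 and 0.02, while Tdg is at -1.14 and Dppa3 at -1.09.

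Because whole stretches of chromosome 11 are lower in the Tdg -/- cells (a median of -0.21 over its 999 measured genes), each gene was also set beside its surroundings. None of the 5 lies on chromosome 11. Dnmt1 lies on chromosome 9, Dnmt3a on 12, Dnmt3b on 2, Dnmt3l on 10 and Uhrf2 on 19, and the medians of these chromosomes were between -0.02 and 0.003. Over the 25 nearest measured genes on each side (31 in all for Dnmt3a, near the end of its chromosome), the medians ran from -0.05 around Dnmt3b to 0.08 around Uhrf2. Uhrf2 and Dnmt3a were below the 25th percentiles of their neighbours, which were -0.09 and -0.06. The other 3 genes lay between the 25th and 75th percentiles of theirs. Relative to the neighbours' median, Uhrf2 was at -0.25, the lowest of the 5.

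**Figure D3:**
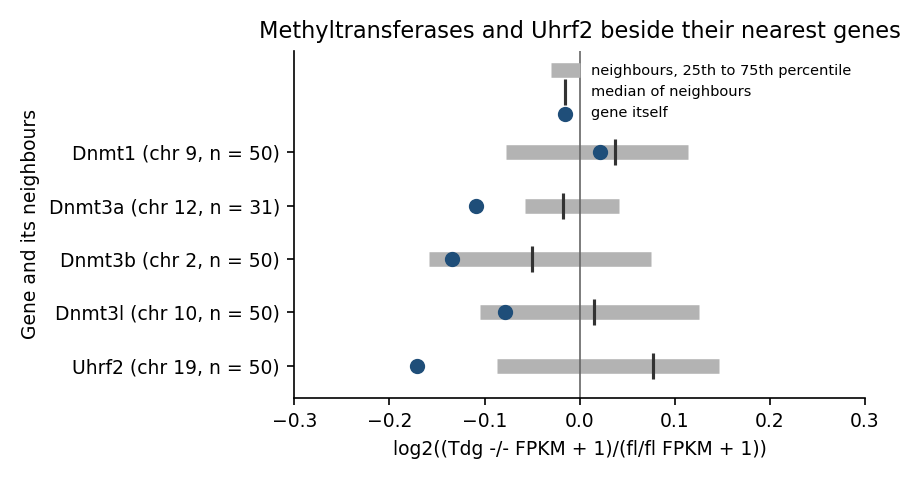
Change of each of the 5 genes (blue points, log2 of Tdg -/- over fl/fl, each FPKM + 1) beside its nearest measured genes on the same chromosome, with grey bars from the 25th to the 75th percentile of the neighbours, a tick at their median and n their number. Uhrf2 at -0.17 and Dnmt3a at -0.11 lie left of their bars.

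Dnmt3l overlaps Aire, a transcription regulator gene, in the RefSeq annotation. Aire had 12.5 FPKM in fl/fl cells and 9.82 FPKM in Tdg -/- cells. The labels do not state counting by strand, so reads from the overlap of these 2 genes may not be separable. Noncoding RNA genes overlap Dnmt1 and Dnmt3a, and none of these has a row in the expression tables. RefSeq lists a pseudogene copy each of Dnmt3a, Dnmt3b and Dnmt3l. The sources used here do not say how reads shared with these copies were counted.

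The measured genes with the most similar pair of values, by the distance on the log2(FPKM + 1) scale over the 2 genotypes, were Rtn3 and Wapal for Dnmt1 and Bcl9 and Dnalc4 for Dnmt3a. They were Ubap1 and Me2 for Dnmt3b, 1110038B12Rik and Tnks2 for Dnmt3l, and Snupn and Mpv17l for Uhrf2. With 2 values per gene this likeness says only that the levels match.

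Genes listed as partners in methylation maintenance, not all of which act at the replication fork, differed by between -0.18 and 0.06 on the log2 scale. Of 10 such genes, 8 were below 0, with a median of -0.12 (7 of 10 and -0.07 after quantile normalization), against 54.9% and -0.02 over all measured genes. None reached 0.5 in either direction, against 3.45%. Pcna, the sliding clamp that holds DNMT1 at the fork, was at 254.6 and 224 FPKM (log2 change -0.18). Hells, a chromatin remodeller needed for methylation of repeats, was at 101.6 and 92.4 FPKM (-0.13), and Kat5, an acetyltransferase, at 18.9 and 16.6 FPKM (-0.18). Usp7, a deubiquitinase that acts on UHRF1 and DNMT1, had a change of 0.01.

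S phase genes were examined since Dnmt1 is itself transcribed in proliferating cells. Of 18, 17 were below 0, with a median of -0.17, against 54.9% and -0.02 over all measured genes. After quantile normalization 16 of 18 were below 0, and their median was -0.11. The lowest were Cdc6, a licensing factor (-0.52, from 17.0 to 11.5 FPKM), Ccne1, a cyclin of the G1 to S transition (-0.30), and Cdc45, a helicase subunit (-0.30). Cdc6 lies on chromosome 11, where its neighbours had a median of -0.22. Cdc6 alone of the 18 reached 0.5, against 3.45% of measured genes in either direction. Dnmt1 was nearly level at 0.02, and at -0.02 after subtraction of its neighbours' median. Tyms, the 1 gene of the 18 above 0, was at 0.01. Whether Dnmt1 differed from these genes was not tested.

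Among 20 genes listed as partners and regulators of the de novo enzymes, 13 were below 0, against 54.9% of measured genes. The median was -0.04. After quantile normalization 8 of 20 were below 0, and the median was 0.02. The list also holds Dppa3, whose protein binds UHRF1, a maintenance factor, and keeps it off chromatin. Dppa3 was not counted among the maintenance partners above. It was the 1 gene of its list past 0.5, which 3.45% of measured genes reached, and past 1, which 0.357% reached. It went from 15.6 FPKM in fl/fl cells to 6.77 FPKM in Tdg -/- cells, a log2 change of -1.09, with a median of -0.08 over its neighbours. Prdm14, a repressor of Dnmt3 genes in ES cells, was at 20.1 and 22.5 FPKM (0.16). Cbx1, a heterochromatin protein on chromosome 11, was at -0.33, with its neighbours at -0.24, and its relative Cbx5 at 0.19. The KRAB pathway factors Trim28 and Zfp57, which keep methylation at imprinted regions, were at -0.11 and -0.05.

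**Figure D4:**
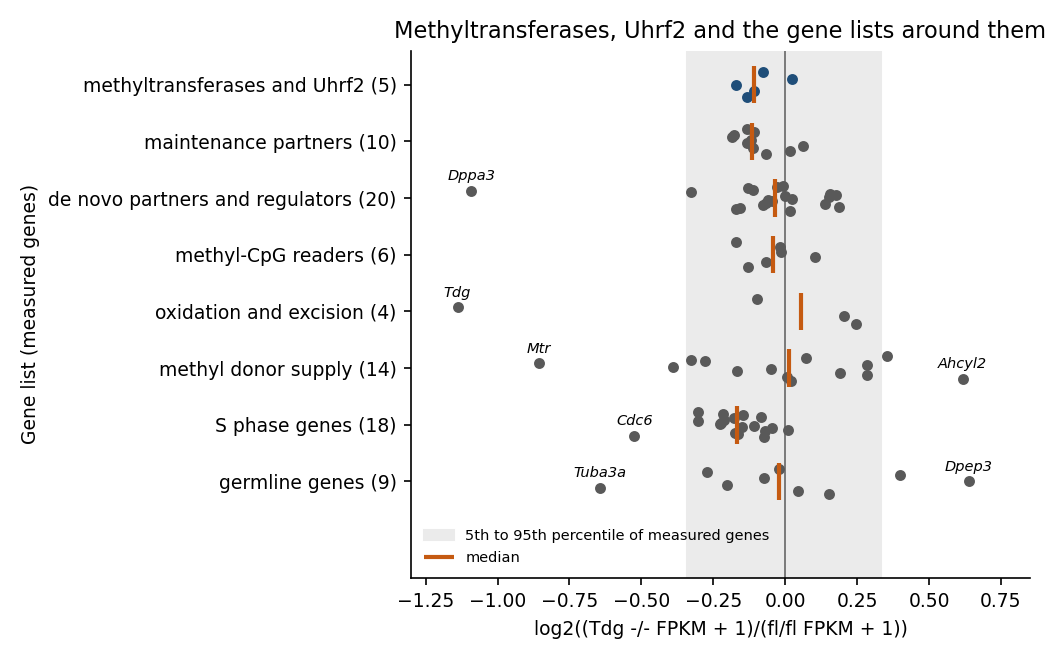
Change of every measured gene (points, log2 of Tdg -/- over fl/fl, each FPKM + 1) in the 5 methylation genes (blue) and 7 related lists (grey), with list sizes in parentheses, medians as orange bars and a shaded band from the 5th to the 95th percentile of measured genes, -0.34 to 0.33. The 5 methylation genes lie inside the band, and genes past 0.5, such as Dppa3 at -1.09 and Mtr at -0.86, are named.

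Of the enzymes of the opposite route, Tet1 had a level like that of Dnmt1. Tet1 had 66.6 FPKM in fl/fl cells and 76.9 FPKM in Tdg -/- cells (log2 change 0.20), Tet2 at 46.9 and 43.8 FPKM (-0.10) and Tet3 at 1.18 and 1.59 FPKM (0.25). Apart from Tdg itself, none of the 4 genes of this list reached 0.5, which 3.45% of measured genes did in either direction. Of the genes listed as readers of methylated CpG or their relatives, 6 of 7 in the tables were measured. Of these, 5 were below 0, with a median of -0.04, against 54.9% and -0.02 over all measured genes. Mbd3, a subunit of the NuRD complex, was at -0.17, the glycosylase gene Mbd4 at -0.13 and Zbtb33 at 0.10.

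The methionine and folate cycles supply S-adenosylmethionine, the methyl donor of these enzymes. Of 14 of their genes, 8 were above and 6 below 0, with a median of 0.01. Over all measured genes, 54.9% were below 0 and the median was -0.02. In each direction 1 of the 14 passed 0.5, against 1.82% of measured genes higher and 1.63% lower. Mtr, methionine synthase, went from 19.3 FPKM in fl/fl cells to 10.2 FPKM in Tdg -/- cells (-0.86), while the median of its neighbours was 0.02. Ahcyl2, a relative of the enzyme that hydrolyses S-adenosylhomocysteine, was at 10.7 and 17.0 FPKM (0.62), in surroundings on chromosome 6 whose median was itself 0.39. Shmt1, a serine hydroxymethyltransferase on chromosome 11, was at -0.39, with its neighbours at -0.15. Mat2a, which makes S-adenosylmethionine in ES cells, was at 162.9 and 163.5 FPKM. Among the 6 genes below 0 were also Ahcy, the hydrolase itself, at 137.7 and 109.5 FPKM (-0.33), and Mat2b on chromosome 11, at 52.5 and 43.1 FPKM (-0.28). The 8 genes above 0 went the other way.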

How the data were processed

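PolyA RNA of Tdg fl/fl and Tdg -/- ES cells was read at 51 bp, per the labels' protocols, with 2 libraries per genotype. The authors deposited 1 table of FPKM per genotype. TopHat 1.4.1, Cufflinks 1.3.0 and the mm9 build appear in the submitters' processing notes. No source used here says how the libraries were combined. The 20437 rows of each table covered 20286 symbols, and rows of 1 symbol were summed. A pseudocount of 1 FPKM and a minimum of 1 FPKM in either genotype were applied. Chromosomes and neighbours came from the RefSeq annotation of GRCm38.p6, which placed 11976 of 12053 measured genes. Promoter sequences for all 6 genes came from the same source. The 5fC, 5hmC and p300 region lists are in mm9, for which no annotation was used, so marks at these genes were not analysed here, nor were protein sequences. Named are the 5 genes, Tdg and the 2 genes nearest in level to each. Of each related list, but not of each marker list, the genes past 0.5 and the 3 with the largest change are named. Pou5f1, Otx2, Lef1, Pou3f1, Fgf5, Usp7, Prdm14, Trim28, Zfp57, Tet2, Tyms, Mat2a, Mat2b, Ahcy and Aire were added after their values were seen. The genes and lists were chosen with earlier results of these data known. The calculation of changes and counts was tested on simulated data. Python 3.11.15, numpy 2.4.6 and pandas 2.3.3 were used.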

Additional observations from a re-analysis of the deposited data

How the results depend on the processing

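With 1 deposited value per genotype, no library could be left out. No paired analysis was possible because the numbered libraries of each genotype were combined in that value. Of the 8 alternatives, 4 cannot move or did not move a gene's own value: both other minimums, the highest row of a symbol and leaving out chromosome 11. Under the other 4, 19 of 20 values of the 5 genes kept their sign, none reached 0.5, and none moved by more than 0.08. The exception in sign was Dnmt1, at -0.02 after subtraction of its neighbours' median, and its highest value was 0.08, after quantile normalization. Uhrf2 ran from -0.25 to -0.15 and Dnmt3l from -0.09 to -0.02. The numbers of genes past a log2 change of 1, 22 higher and 21 lower, became 58 and 52 with a pseudocount of 0.1, and 11 each way with a minimum of 5 FPKM. Those past 0.5, 219 higher and 197 lower, became 410 and 330 with the pseudocount of 0.1. With the minimum of 5 FPKM 118 were higher, and without chromosome 11 124 were lower. With the minimum of 5 FPKM, fewer genes remain and the median of the TDG and TET list went from 0.05 to -0.10, and that of the germline list from -0.02 to -0.24. A move of 0.1 in a change or of 1.5 times in a count was taken as a move. Neighbour medians with 10 genes on each side moved by less than that. The planned overlap of marks with these genes was not run.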

Other observations

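Germline genes that are known to be silenced by promoter methylation had low levels. Of 18, 9 reached 1 FPKM in either genotype, as did 12053 of all 20286 symbols, so this count does not set them apart. The highest was Sycp3, of the meiotic chromosome axis, at 7.53 FPKM in fl/fl cells and 7.80 FPKM in Tdg -/- cells. Of the 9, 4 were above and 5 below 0, with a median of -0.02. Over all measured genes, 54.9% were below 0 and the median was -0.02. Dpep3, a dipeptidase, was at 1.06 and 2.21 FPKM (log2 change 0.64), Mael, of the piRNA pathway, at 2.58 and 3.71 FPKM (0.40), and Tuba3a, a tubulin, at 7.07 and 4.16 FPKM (-0.64). Dazl and Ddx4, RNA-binding proteins of germ cells, stood at 5.60 and 4.74 FPKM and at 3.74 and 3.67 FPKM. One gene in each direction passed 0.5, against 1.82% of measured genes higher and 1.63% lower by that much. Sycp3, Dazl and Ddx4 were added after their values were seen. As elsewhere, replicates could not be compared.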
